A study of Homo sapiens and Mus musculus with 33 samples.

Results

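In HCT116 cells, 118 peaks of 40266 passed a limit on the gain in reads of both H3K18cr and H3K18ac after MS275 treatment. They also had to reach a set level with DMSO, and both changes were above 0 in 3246 of the 29311 peaks that did. Over most of the other peaks the 2 marks were lower on the scale of the deposited values, a direction that turned with the scaling. H3K18cr and H3K18ac are the crotonylated and acetylated forms of lysine 18 of histone H3. The peaks were selected on their ChIP-seq values: the mean of 3 MS275 libraries exceeded the mean of 3 DMSO libraries by at least 0.3 on the log2 scale (23.1% more reads) for both marks, and the mean over the 6 DMSO libraries was at least 5, or 32 reads scaled to the largest library. Of the 40266 peaks, 29311 reached that level with DMSO, and the 29193 that did so without both gains are called the other peaks here. The gains are therefore a description of the choice, and no test was made of them.

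Acyl groups on lysine 18 of histone H3 are written by acetyltransferases such as p300 and CBP, which also accept crotonyl-CoA, and are removed by deacetylases of class I, among them HDAC1, HDAC2 and HDAC3. Both marks are known at active promoters and at enhancers, the distal elements at which transcription factors bind and gather these acetyltransferases. MS275 (entinostat) inhibits deacetylases of that class. ChIP-seq counts reads as a share of a library, so a locus gains reads only where it gains more than the remainder of the genome does, and a change in the total amount of a mark is not seen.

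All groups were HCT116 cells, an established human colon carcinoma line with epithelial features, given 5 µM MS275 or an equal amount of DMSO for 18 h. Each mark was assayed in 3 libraries per treatment, with 1 input library (chromatin before immunoprecipitation) per treatment that served both marks (the methods name 2 replicates for H3K18cr, the labels and the values 3), and RNA was sequenced in 4 libraries per treatment. Chromatin of both treatments was sonicated in a buffer with sodium butyrate, itself a deacetylase inhibitor, and all data come from 1 cell line. The labels do not say that libraries of a group came from separate cultures, although the methods call the RNA libraries biological replicates. In the RNA of these cells 7 of 9 epithelial markers reached a mean of 1 CPM (counts scaled to a common library size), VIL1 and CDX1 being below it. The sum of the epithelial markers ranged from 3603 to 5361 CPM in the DMSO libraries and from 4591 to 6185 CPM in the MS275 libraries. Of 5 immune markers CD68 alone reached 1 CPM, their sum ranging from 5.76 to 8.37 CPM (DMSO) and from 4.14 to 11.3 CPM (MS275). Of 6 stromal markers COL1A1 alone reached 1 CPM, and their sum ranged from 5.75 to 9.21 CPM (DMSO) and from 10.4 to 17.4 CPM (MS275), without overlap of the groups. The part of these markers in the results below was not tested.

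The DNA at the centre of 4 of the 118 peaks is printed to show what kind of sequence gained the marks. They are among the peaks with the largest mean gain of those in which every MS275 library was above every DMSO library for both marks. Each line gives 300 bases of the plus strand of GRCh38, read 5′ to 3′, and capitals mark the letters TGANTCA, the site of AP-1 (the FOS and JUN family of transcription factors).
CAMK2D, chr4:113556676-113556975: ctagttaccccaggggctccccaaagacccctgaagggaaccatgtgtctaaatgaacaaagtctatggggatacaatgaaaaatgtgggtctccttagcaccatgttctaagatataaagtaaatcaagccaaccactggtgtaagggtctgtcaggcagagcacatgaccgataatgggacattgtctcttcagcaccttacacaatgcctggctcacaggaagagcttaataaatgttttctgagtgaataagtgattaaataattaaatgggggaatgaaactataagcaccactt
IGF2BP3, chr7:23337376-23337675: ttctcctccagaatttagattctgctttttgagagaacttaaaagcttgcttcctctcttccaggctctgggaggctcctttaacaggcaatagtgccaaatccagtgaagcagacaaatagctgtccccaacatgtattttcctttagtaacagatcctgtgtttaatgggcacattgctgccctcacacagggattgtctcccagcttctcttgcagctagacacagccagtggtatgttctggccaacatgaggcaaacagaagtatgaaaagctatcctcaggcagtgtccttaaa
KIAA1755, nearest gene, chr20:38271151-38271450: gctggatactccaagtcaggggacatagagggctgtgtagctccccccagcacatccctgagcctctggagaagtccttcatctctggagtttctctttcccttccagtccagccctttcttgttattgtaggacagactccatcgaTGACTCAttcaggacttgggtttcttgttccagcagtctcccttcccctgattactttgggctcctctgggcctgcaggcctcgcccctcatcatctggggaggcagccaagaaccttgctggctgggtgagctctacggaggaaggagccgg
CDK18, nearest gene, chr1:205492651-205492950: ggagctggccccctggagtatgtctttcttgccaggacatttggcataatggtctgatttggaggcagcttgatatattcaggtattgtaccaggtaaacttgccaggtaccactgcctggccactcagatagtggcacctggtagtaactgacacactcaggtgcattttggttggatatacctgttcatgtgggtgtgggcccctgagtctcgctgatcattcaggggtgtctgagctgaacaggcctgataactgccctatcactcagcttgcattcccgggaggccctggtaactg
The stretch near KIAA1755 holds 1 AP-1 match, and the other 3 hold none. All 4 are poor in CG dinucleotides, which number between 0 and 4 per 300 bases, and their GC content lies between 42.3% and 56.3%.

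**Figure D1:**
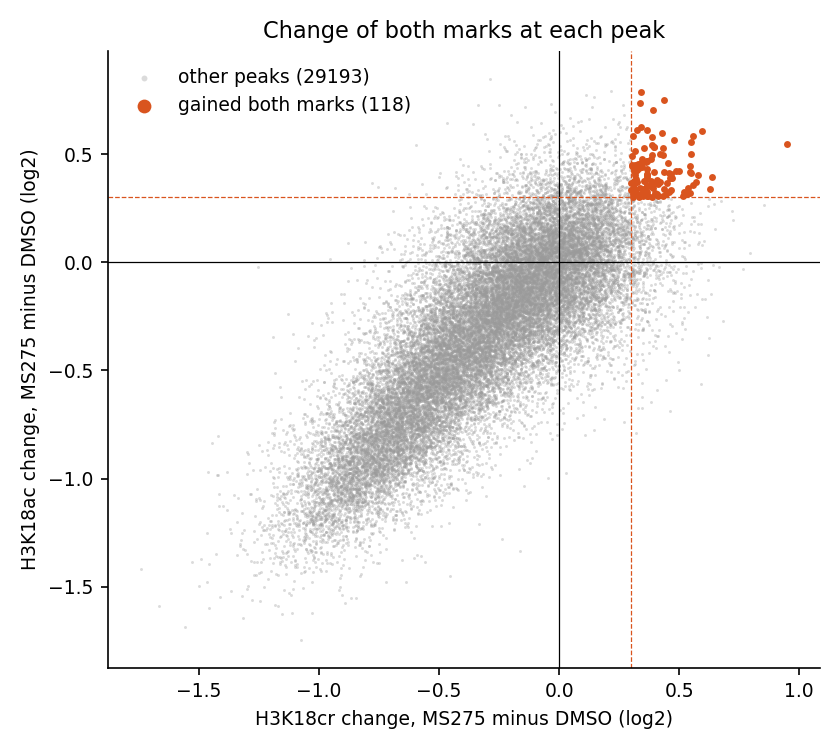
Change of H3K18cr (horizontal axis) and of H3K18ac (vertical axis) with MS275 at 29311 peaks, in log2 units, each point being 1 peak. The 118 peaks that gained both marks lie to the right of and above the dashed lines at 0.3, while the other peaks have medians of -0.30 for H3K18cr and -0.28 for H3K18ac on the scale of the deposited values.

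Most of the 118 gains were small and rested on few reads. The median gain was 0.38 for H3K18cr (quartiles 0.34 and 0.45) and 0.39 for H3K18ac (quartiles 0.34 and 0.47), against medians of -0.30 and -0.28 over the other peaks. The nearest group for comparison is the 10946 other peaks away from a TSS whose level and width lie within the range of the 118, and their medians were -0.08 for H3K18cr and -0.05 for H3K18ac. The median level of the 118 peaks with DMSO was 5.36 log2 scaled reads, against 6.73 for the other peaks and 5.91 for that nearest group, so they sit near the floor of the rule. The recovered reads per library had a median of 40 for H3K18cr and 36 for H3K18ac in these peaks. At such numbers, counting alone gives the difference of the means of 3 and 3 libraries a median standard error of 0.20 for either mark, and the spread between libraries gives 0.21 for H3K18cr and 0.22 for H3K18ac. A gain of 0.3 is thus less than 2 of these standard errors, which cover counting error and the spread between these libraries only.

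The order of the libraries was not the same for the 2 marks. Between same-numbered libraries, the median H3K18cr change of the 118 peaks was 0.23, 0.32 and 0.58 for replicates 1, 2 and 3. For H3K18ac it was 0.62, 0.44 and 0.15. The other peaks shifted along the same order, from -0.44, -0.41 and -0.11 for H3K18cr and from 0.09, -0.36 and -0.70 for H3K18ac. In the 118 peaks every MS275 library was above every DMSO library in 45 peaks for H3K18cr, in 52 for H3K18ac and in 19 for both, where the shares among all 29311 peaks of that level were 1.74%, 1.93% and 0.164%. In 54 peaks all 3 same-numbered pairs rose for both marks, against 0.809% of the 29311 peaks. Since the rule itself used these libraries, nothing is read from these shares.

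**Figure D2:**
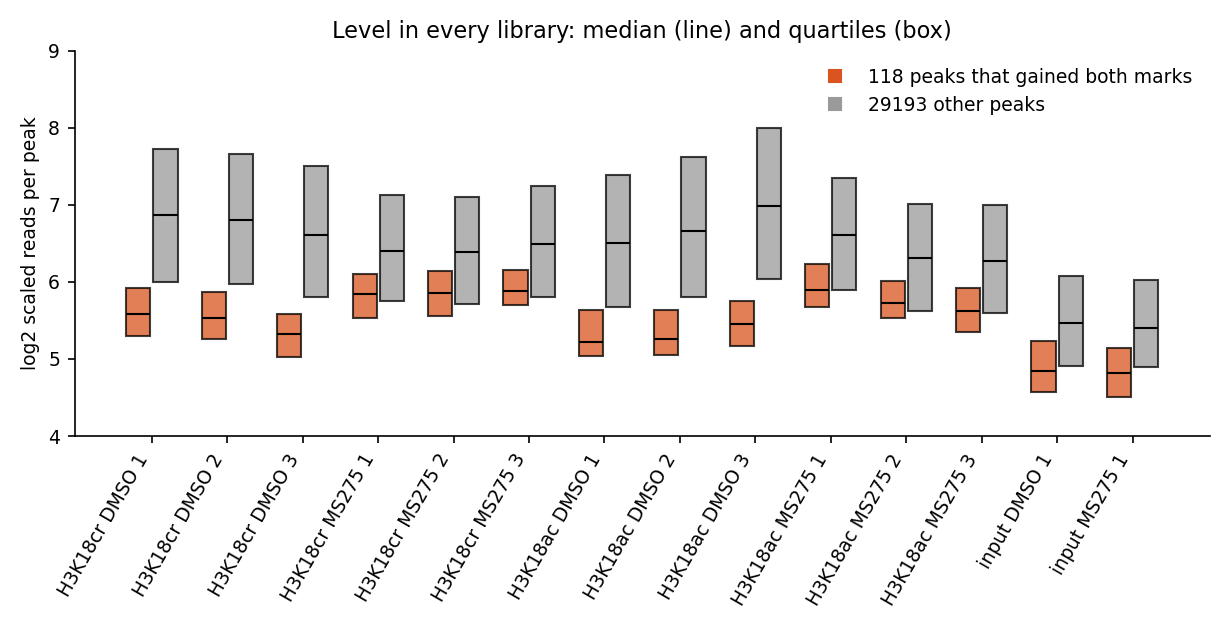
Level of the marks and of input in every library, in log2 scaled reads per peak; orange boxes are the 118 peaks that gained both marks and grey boxes the 29193 other peaks, with lines for medians and box edges for quartiles. The orange H3K18cr medians run from 5.33 to 5.59 (DMSO) and from 5.84 to 5.88 (MS275), while the 2 input medians are 4.84 and 4.82.

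A replicate number that had no part in the choice gives a reading that the choice does not fix. When the rule was applied to 2 of the 3 replicate numbers, 110, 219 and 162 peaks passed it without replicate 1, 2 and 3, of which 35, 66 and 38 belong to the 118. In the left-out pair, the median H3K18cr change of the peaks so chosen was 0.03 for replicate 1, 0.09 for replicate 2 and 0.22 for replicate 3. The median H3K18ac change was 0.33, 0.13 and -0.07. Each of these 6 medians was under the 0.3 of the rule except that of H3K18ac in replicate 1, and each was above that of the other peaks in the same libraries, by between 0.23 and 0.62. H3K18cr rose in 54.5%, 56.2% and 73.5% of the chosen peaks in the left-out pair, against 15.8%, 18.0% and 39.0% of the other peaks. H3K18ac rose in 84.5%, 64.4% and 40.1% of them, against 60.1%, 23.3% and 10.3%. In the nearest group of 10946 peaks the shares that rose in these pairs were 30.4%, 33.6% and 57.6% for H3K18cr and 74.9%, 42.1% and 19.5% for H3K18ac, nearer to those of the chosen peaks.

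**Figure D3:**
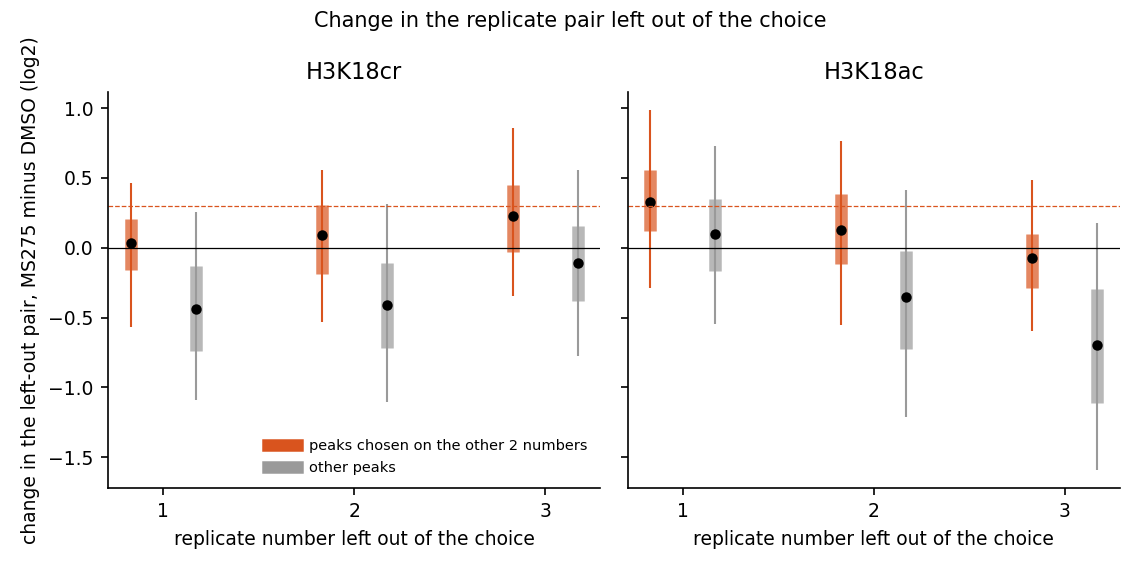
Change with MS275 in the replicate pair that was left out of the choice, in log2 units, for peaks chosen on the other 2 numbers (orange) and for the other peaks (grey); points are medians, thick bars quartiles and thin lines the 5th to 95th percentiles. The orange medians run from -0.07 to 0.33, each above the grey median beside it.

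Among the 29311 peaks at or above the floor on the DMSO level, 708 gained at least 0.3 in H3K18cr and 984 in H3K18ac. The 118 are by the rule the peaks in both sets, which is 16.7% of the former and 11.99% of the latter.

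How many peaks count as gaining depended on the scale. The deposited values are scaled so that all libraries match the largest one, and on that scale the median change over the 29311 peaks was -0.30 for H3K18cr and -0.28 for H3K18ac. With TMM scaling over all peaks (trimmed mean of M values, which sets the bulk of peaks to no change), those medians became -0.04 and -0.05, the 118 peaks had medians of 0.64 and 0.63, and 1910 peaks met the rule, 90 of the 118 among them. The remainder of the 118 fell under the floor on the DMSO level, which the scaling lowered, and not under the gain. With the reads in peaks set equal between libraries, the medians over the 29311 peaks turned to 0.11 for H3K18cr and 0.16 for H3K18ac, and those of the 118 were 0.79 and 0.84. Such a scaling adds 1 constant per library to all peaks, so it moves the 118 and all other peaks alike, and the directions of the marks given elsewhere hold on the scale of the deposited values.

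The input was not used by the rule. Its level changed by a median of 0.03 (quartiles -0.27 and 0.22) in the 118 peaks and was higher with MS275 in 61 of them (51.7%). Over the other peaks the median was -0.05, and the input was higher in 43.5% of them. With 1 input library per treatment there is no replicate check of this change. The mean of the ChIP libraries stood above input by a median of 0.54 with DMSO and of 0.95 with MS275 in the 118 peaks. These medians were 1.18 and 0.96 in the other peaks, and 0.82 and 0.78 in the nearest group of 10946. With DMSO the ChIP mean was above input in 115 of the 118 peaks (97.5%), against 99.9% of the other peaks. As the rule used the ChIP libraries, these differences were not tested.

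The largest mean gain was inside CAMK2D, a subunit of the calcium/calmodulin-dependent kinase II. At chr4:113556001-113557650, an intron 38358 bp from the nearest TSS, the H3K18cr level was 5.00, 4.36 and 5.27 log2 scaled reads in DMSO replicates 1 to 3 and 5.78, 5.75 and 5.95 with MS275. The H3K18ac level there was 5.13, 5.12 and 5.17 with DMSO and 5.77, 5.77 and 5.53 with MS275. Every MS275 library was above every DMSO library for both marks, and the input was 4.38 with DMSO and 4.31 with MS275.

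In an intron of TLK2, a kinase that acts on the histone chaperone ASF1, the peak at chr17:62561551-62564250 had H3K18cr levels of 6.17, 6.45 and 5.84 with DMSO and 6.63, 6.63 and 6.98 with MS275. Its H3K18ac levels were 5.85, 6.45 and 6.34 with DMSO and 6.95, 7.04 and 6.48 with MS275, again without overlap. In an intron of IGF2BP3, an RNA-binding protein of fetal tissue and of tumours, the peak at chr7:23336401-23338650 had 5.95, 5.54 and 5.21 against 5.98, 6.06 and 6.35 for H3K18cr. Its H3K18ac levels were 5.27, 5.64 and 5.45 against 5.87, 6.08 and 6.16. For IGF2BP3 the lowest H3K18cr library with MS275 exceeded the highest with DMSO by little, since DMSO replicate 1 was high.

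The other peaks with no overlap in either mark and a large gain lay away from TSS. The peak at chr20:38270551-38272050, in noncoding genes and with its centre 10528 bp from KIAA1755, gained 0.48 in H3K18cr and 0.57 in H3K18ac. The peak at chr1:11707201-11709750, in an intron of DRAXIN, which encodes a secreted axon guidance protein, gained 0.55 and 0.41. The peak at chr1:205491451-205494150, 11796 bp from the kinase gene CDK18, gained 0.54 and 0.42. An intron of STARD13 gained 0.39 and 0.53 at chr13:33261601-33263850, and an intron of the carbonic anhydrase CA13 gained 0.39 and 0.50.

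Among the 8 largest mean gains, 5 had libraries of the 2 treatments that overlapped in at least 1 mark. The peak at the TSS of WNT7A, a Wnt ligand, at chr3:13878001-13880850, had H3K18ac levels of 5.64, 5.64 and 5.36 with DMSO and 6.73, 6.15 and 6.11 with MS275, without overlap. Its H3K18cr levels were 6.63, 6.86 and 5.44 against 6.91, 6.71 and 6.32, a mean gain of 0.34 in which DMSO replicate 3 was the low library and replicate 2 fell. At INHBB, which encodes a subunit of activin B, chr2:120344551-120345900 had H3K18cr levels of 5.86, 5.58 and 4.88 against 5.98, 5.67 and 5.98, so that here too DMSO replicate 3 was low. The remaining 3 were in an intron of GRHL3, a transcription factor of surface epithelia (gains of 0.55 in H3K18cr and 0.56 in H3K18ac), 177827 bp from OSR1 (0.39 and 0.70), and 2575 bp from EWSR1 (0.34 and 0.74).

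The highest levels with DMSO among the 118 were at wide peaks. The peak over TMEM100, at chr17:55722001-55726950, had a mean of 6.94 log2 scaled reads over the 6 DMSO libraries and gained 0.37 in H3K18cr and 0.31 in H3K18ac, without overlap in either mark. Its input with DMSO was 6.76, so the ChIP mean stood only 0.18 above input, against 0.42 for the PVT1 peak named next. A peak in the noncoding gene PVT1 had 6.93 and gained 0.37 and 0.31. Peaks in introns of NOL4L (6.80), of KITLG, the ligand of the receptor KIT (6.61), and of NAV3 (6.21), and at the TSS of the potassium channel gene KCND3 (6.31), gained between 0.31 and 0.42 in either mark. KITLG held a second of the 118 peaks, 1800 bp from the first, and another adjacent pair, 750 bp apart, lay beside DSC3, which encodes a desmosomal cadherin of epithelia.

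At the threshold, the 3 peaks just inside had a smaller gain of 0.3003, 0.3007 and 0.3009, at distances of 315924 bp from PTPRC and 197220 bp from CDKN2B, their nearest protein-coding genes, and in FBXO11. The 3 peaks just outside had 0.2992, 0.2995 and 0.2997, in SLC25A48, 810992 bp from ACVR2A and in ALOX5. Lifting the floor on the DMSO level would have added 674 peaks with both gains.

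The 118 peaks lay mostly away from promoters. A TSS of a protein-coding transcript was within 1 kb of 12 peaks (10.2%, 95% Wilson interval 5.91 to 16.9), against 41.6% of the other peaks and 92.4% of the 499 peaks in which both marks fell by at least 1. The median DMSO level was 7.33 log2 scaled reads for other peaks at a TSS and 6.22 for those away, against 5.36 for the 118. The share at a TSS among other peaks of like level was not counted. Among peaks away from a TSS the median distance to one was 28153 bp, against 28140 bp for the other peaks. The peak centre was in an intron of a protein-coding gene in 49 peaks (41.5%), between genes in 47 (39.8%), in a noncoding gene in 17 (14.4%) and in an exon in 5 (4.24%). For the other peaks these shares were 44.9%, 24.99%, 11.1% and 19.0%. They were spread over the chromosomes, with 15 on chromosome 1, 12 on chromosome 12 and none on chromosomes 16 and X.

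In base composition the peaks away from a TSS were close to other distal peaks. The 106 such peaks had a median GC content of 46.2% and a median ratio of observed to expected CG dinucleotides of 0.18, against 45.4% and 0.21 for the 17048 other peaks away from a TSS. Their width was smaller, with a median of 1800 bp against 2400 bp. An AP-1 match, TGANTCA on either strand, was in the central 300 bases of 32 of the 118 peaks (27.1%, interval 19.9 to 35.8), against 14.9% of the other peaks. Among peaks away from a TSS the shares were 30.2% (interval 22.3 to 39.5) and 21.7%, and in the nearest group of 10946 the share was 23.3%. A GC box (GGGCGG), common in CG-rich promoters, was in 10.2% of the 118 peaks and 29.5% of the other peaks, and away from a TSS in 4.72% and 10.9%. Of the other motifs searched on both strands, TEAD (GGAATG) was in 22.9% of the 118 against 16.3%, the letters AGATAA of the GATA factors in 16.1% against 11.9%, and TCF/LEF (ATCAAAG), the site of Wnt-responsive factors, in 5.93% against 3.30%. Away from a TSS these shares were 22.6% against 19.8%, 17.9% against 16.0% and 6.60% against 4.46%. The shares of E-box (CACGTG), ETS (CCGGAAG), FOX (TGTTTAC) and STAT (TTCNNNGAA) matches were between 3.39% and 6.78% in the 118 and between 3.33% and 7.75% in the other peaks. The CRE site (TGACGTCA) had 0 matches in the 118 peaks, which allows a share of up to 3.15% by the Wilson interval, against 0.760%. The E-box, CRE and AP-1 letters are palindromes, 1 stretch can hold several motifs, and a match is a run of letters and not a measured binding site.

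Peaks close by changed less than the 118, which follows from the rule, since these neighbours did not meet it. Within 20 kb of the 118 lay 76 other peaks away from a TSS, whose median change was -0.02 for H3K18cr and 0.00 for H3K18ac, between those of the 118 and those of all other peaks away from a TSS (-0.15 and -0.12). Promoter peaks of the same genes lay below the 118 peaks in their change, which is no result either, as the 118 were chosen for their gains. The direction of these promoter peaks depended on the scaling. For 36 genes that hold one of the 118 peaks and have another peak at their TSS, that promoter peak changed by a median of -0.43 for H3K18cr and of -0.30 for H3K18ac, and it was higher with MS275 in 7 for H3K18cr and in 9 for H3K18ac. The promoter peaks of 10765 other genes had medians of -0.58 and -0.65, and were higher with MS275 in 456 for H3K18cr and in 608 for H3K18ac. With the reads in peaks set equal, an alternative chosen after seeing the data, the medians were -0.03 and 0.14 at the 36 promoters, 17 and 24 of which were higher, and -0.18 and -0.20 at the promoters of other genes.

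RNA was not used to choose the peaks, so it is the replicated readout that the rule left free. In the counts, 83 genes lay over or within 2 kb of one of the 118 peaks (75 peaks in all), and 54 of them passed the filter on low counts. With MS275, 40 of the 54 were higher and 14 lower, where 51.3% of all 14961 genes tested were higher. The median change was 0.24 on the log2 scale (quartiles -0.01 and 0.84), against 0.01 over all genes tested. In a bulk sample fewer cells that express a gene and less RNA per cell cannot be told apart. Of the 54, 27 were higher with MS275 in all 4 same-numbered pairs, against 19.2% of all genes tested, and 3 were lower in all 4, against 17.5%.

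With treatment alone in the model, no gene of the 54 (0) passed an adjusted p of 0.05 by edgeR's quasi-likelihood test, against 0.00668% of all genes (1 of 14961), and 11 of the 54 had an unadjusted p under 0.05, of which 10 were higher, against 6.6% and 4.59% of all genes. The RNA libraries of 1 replicate number deviated together, and with the number as a block 16 of the 54 were called, 15 higher and 1 lower. Over all genes the block gave 14.4% called, 7.83% higher and 6.55% lower, so that 27.8% of the genes with one of these peaks were called higher against 7.83% of all. DESeq2 called 2 of the 57 genes that its own filter left without the block, both higher, against 0.993% called and 0.771% called higher of all 16218. With the block it called 19 of 54, 16 of them higher, against 16.5% of all 15774 genes called and 8.52% called higher. Without each replicate in turn the block fit called between 8 and 15 of the 54, the fewest without replicate 1 (8) and replicate 2 (9). The genes are not independent of each other, the call rests on the numbers being pairs, and no test of the group as a whole was made.

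**Figure D4:**
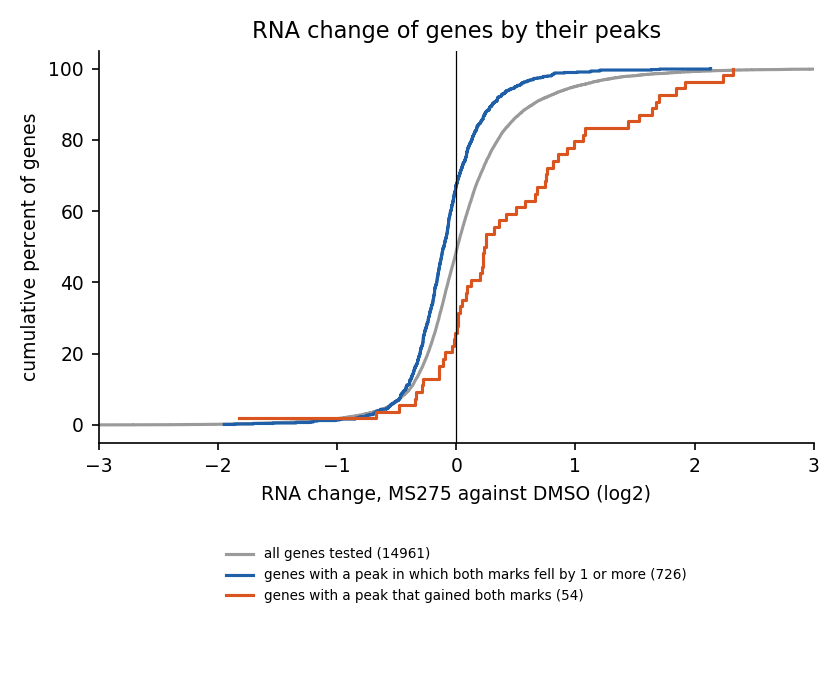
Cumulative percent of genes by their RNA change with MS275 (log2, treatment alone in the model), for the 54 genes tested that hold a peak that gained both marks, 726 that hold a peak in which both marks fell by at least 1, and all 14961 genes tested. The curve of the 54 genes lies furthest to the right above 0, with a median of 0.24 against -0.10 and 0.01.

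The genes whose promoter gained both marks had low RNA levels. The 12 peaks within 1 kb of a TSS belong to KCND3, KIF21B, INHBB, WNT7A, RAB6B, PSD2, RUNX2, APBA1, TMEM119, TMEM100, ZBTB7C and CEACAM16. Among them, KIF21B encodes a kinesin, RAB6B a Rab GTPase of the Golgi, APBA1 an adaptor of synaptic vesicle release and RUNX2 a transcription factor. With DMSO the 12 genes had a median of 0.134 CPM per kb of exon, against 0.721 for all 20583 genes with a known length, and 9 of them passed the filter. All 9 were higher with MS275, by a median of 1.65 on the log2 scale, and each was higher in all 4 pairs. Of all genes tested, 51.3% were higher and 19.2% were higher in all 4 pairs. The 9 had a median of 0.145 CPM per kb with DMSO, against 4.61 for all tested genes. Genes this low can pass the filter through their MS275 libraries alone, and TMEM119, TMEM100 and CEACAM16 did not pass. The filter thus favours low genes that rise. With the block 4 of the 9 were called higher, RAB6B, KIF21B, RUNX2 and APBA1, against 7.83% of all genes tested. That limit of the filter holds for this count too. The ratio of observed to expected CG dinucleotides was between 0.655 and 0.951 in 9 of the 12 peaks and between 0.150 and 0.237 in those of TMEM119, TMEM100 and CEACAM16.

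RAB6B, whose TSS lies in the peak at chr3:133894351-133896450, had 9.39, 14.9, 3.66 and 14.4 CPM in DMSO replicates 1 to 4. With MS275 it had 22.1, 32.3, 27.3 and 33.4 CPM, and the groups did not overlap. The change was 1.57 ± 0.24 (SE) on the log2 scale with the block (edgeR adjusted p = 0.00169) and 1.44 ± 0.37 without it (adjusted p = 0.348). At its peak H3K18cr gained 0.45 and H3K18ac 0.46, while the input rose by 0.49 as well. The 250 bases before the annotated start, which the peak covers, are given from RefSeq on the build GRCh38.p14, on the minus strand on which the gene is read, with the GC box GGGCGG in capitals, as the contrast to the distal peaks printed above.
RAB6B promoter, chr3:133895883-133896132: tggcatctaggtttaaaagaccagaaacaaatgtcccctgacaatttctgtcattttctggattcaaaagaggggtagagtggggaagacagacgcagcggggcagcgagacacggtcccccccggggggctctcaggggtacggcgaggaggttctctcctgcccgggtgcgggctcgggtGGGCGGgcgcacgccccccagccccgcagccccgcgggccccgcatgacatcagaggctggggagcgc
This promoter holds 18 CG dinucleotides in 250 bases and has a GC content of 65.2%.

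RUNX2, a transcription factor needed for bone formation, holds 2 of the 118 peaks, over an internal TSS at chr6:45421051-45423600 and in an intron at chr6:45438151-45440550. They gained 0.37 and 0.49 in H3K18cr and 0.41 and 0.42 in H3K18ac. RUNX2 had 1.00, 1.93, 0 and 1.82 CPM with DMSO and 5.22, 8.17, 3.63 and 5.55 CPM with MS275, without overlap. The change was 2.68 ± 0.65 with the block (edgeR adjusted p = 0.0171) and 2.24 ± 0.84 without it (adjusted p = 0.606), at a mean of 142.5 counts per library.

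KIF21B had 5.47, 12.6, 4.62 and 12.5 CPM with DMSO and 15.0, 16.9, 15.4 and 19.9 CPM with MS275, each MS275 library being above each DMSO library. Its change was 1.06 ± 0.22 with the block (edgeR adjusted p = 0.00707). APBA1 had 0.067, 1.12, 0.029 and 0.339 CPM with DMSO and 1.54, 2.81, 0.860 and 2.62 CPM with MS275, where DMSO replicate 2 overlapped the MS275 range. Its change was 3.17 ± 0.89 with the block (edgeR adjusted p = 0.033).

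WNT7A holds 2 of the 118 peaks as well, at its TSS and in an intron, and had 0.937, 0.234, 0.664 and 1.00 CPM with DMSO and 2.28, 2.47, 2.33 and 2.06 CPM with MS275, without overlap. Its change of 1.82 ± 0.68 was not called with the block (edgeR adjusted p = 0.0915). The TSS genes KCND3, PSD2, ZBTB7C and INHBB changed by 3.21, 2.26, 1.04 and 0.97 with the block, none of them called. TMEM119 had 0 CPM in all 8 libraries, and TMEM100 and CEACAM16 stayed under 0.5 CPM in each.

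Genes with one of the 118 peaks inside or beside them, but none at a TSS, were called higher in 11 of 45 and lower in 1 of 45 with the block, against 7.83% and 6.55% of all genes tested. ITGA2, the alpha-2 subunit of the collagen receptor integrin, had 51.4, 87.7, 32.1 and 118.6 CPM with DMSO and 118.0, 142.6, 59.5 and 188.1 CPM with MS275. The groups overlap, but each number rose, by 0.86 ± 0.09 with the block (edgeR adjusted p = 0.00019). RUNX1, a transcription factor of blood and epithelia, had 35.6, 34.7, 25.8 and 35.5 CPM with DMSO and 48.6, 59.8, 40.1 and 62.3 CPM with MS275, without overlap, and changed by 0.67 ± 0.10 (adjusted p = 0.0014).

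DRAXIN rose from 2.54, 2.42, 3.78 and 4.98 CPM to 6.54, 13.1, 7.71 and 12.5 CPM, without overlap, by 1.53 ± 0.27 with the block (edgeR adjusted p = 0.00332). Of the genes at the 19 peaks without overlap in either mark, DRAXIN was the one whose RNA did not overlap either. The share of all genes tested whose RNA did not overlap was not counted, so nothing is read from this. PADI3, which encodes a peptidylarginine deiminase of epidermis and hair, changed by 1.43 ± 0.36, with 1.07 against 1.31 CPM in replicate 1 and 3.20 against 13.5 CPM in replicate 2. The pairs thus agree in direction and differ in size. MEGF11, of the 5 largest rises among genes with at least 100 counts, changed by 1.38 ± 0.63 and was not called (adjusted p = 0.164).

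**Figure D5:**
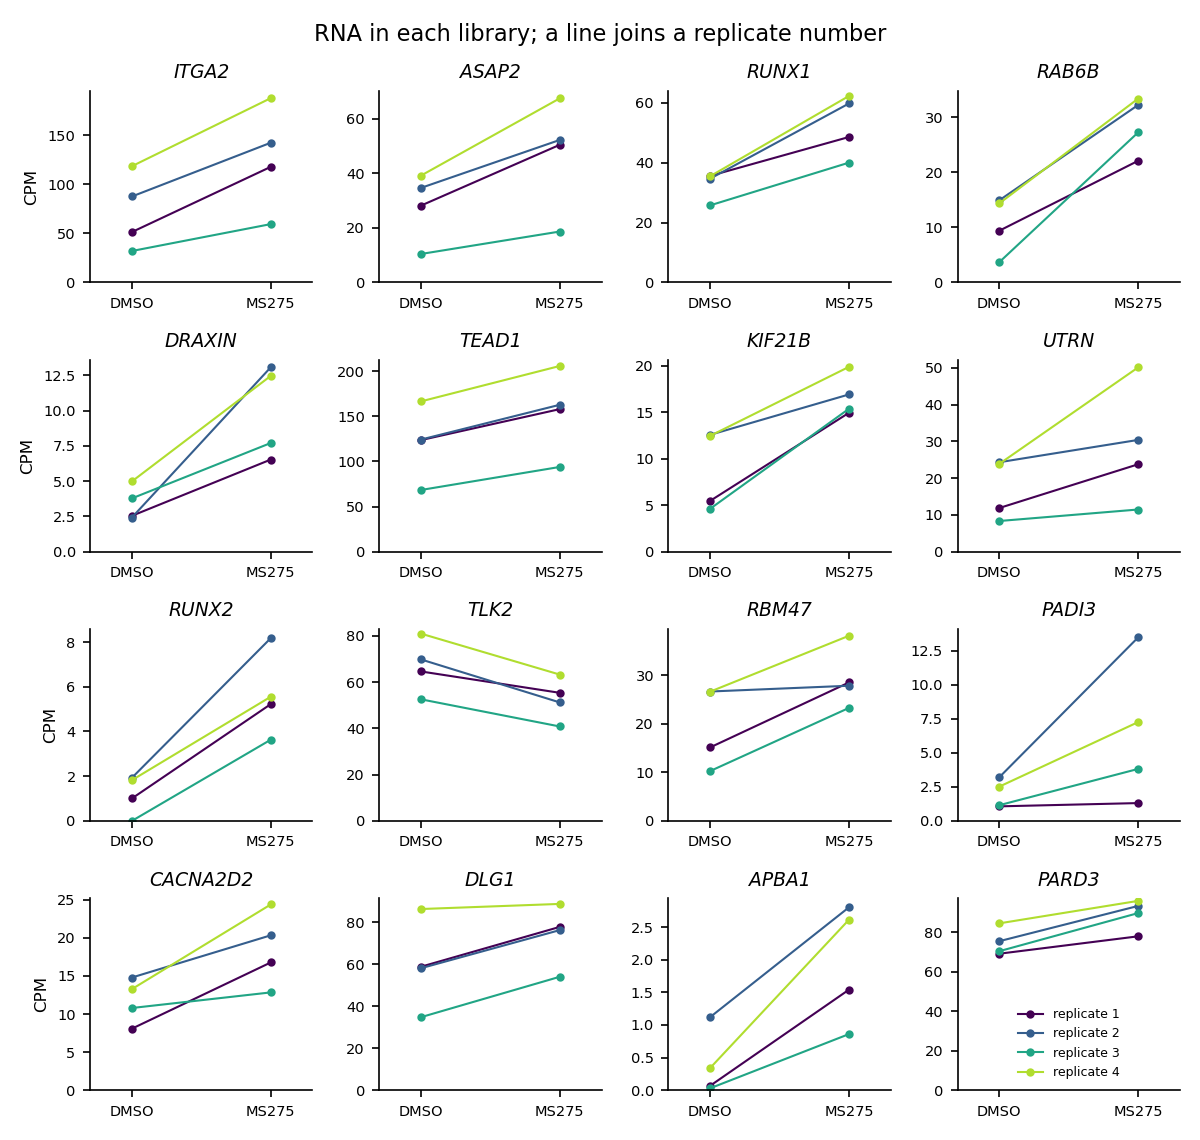
RNA of the 16 genes with a peak that gained both marks that were called with the replicate block, in CPM (vertical axes from 0) with DMSO and MS275; a line joins the 2 libraries of a replicate number. All 4 lines rise in 15 genes and all 4 fall in TLK2.

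Further called rises were below 1 on the log2 scale. ASAP2 and UTRN, which encode an ARF GTPase-activating protein and utrophin, changed by 0.76 ± 0.10 and 0.72 ± 0.15 with the block. RBM47, an RNA-binding protein of intestinal epithelium, and CACNA2D2, a calcium channel subunit, both changed by 0.66. TEAD1, which binds DNA for the Hippo pathway, and the polarity genes DLG1 and PARD3 changed by 0.38, 0.36 and 0.25.

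TLK2 was the called fall. It had 64.7, 69.9, 52.6 and 81.0 CPM with DMSO and 55.4, 51.2, 40.8 and 63.3 CPM with MS275, so that each number fell while the groups overlapped. Its change was -0.35 ± 0.09 with the block (edgeR adjusted p = 0.0176) and -0.35 ± 0.19 without it (adjusted p = 0.835). Its intronic peak had the second largest mean gain of the 118. EWSR1, lying 2575 bp from the centre of a peak, changed by -0.14 ± 0.06, was lower in all 4 pairs and was not called (edgeR adjusted p = 0.129). These were the 2 genes with at least 100 counts that were lower in every pair. CAMK2D and IGF2BP3, which hold 2 of the largest gains, were higher in all 4 pairs but were not called.

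The genes were expressed at low levels. The 51 tested genes with one of the 118 peaks and a known length had a median of 1.75 CPM per kb of exon with DMSO, against 4.61 for all tested genes and 7.63 for tested genes with a peak in which both marks fell by at least 1. Those latter 726 genes changed by a median of -0.10, and with the block 18 were called higher and 88 lower. Genes with another peak at or above the DMSO floor of the rule but none of the 118 (13389 tested) had a median of 0.00, with 8.13% called higher and 7.19% lower. Their peaks were not matched in level to the 118.

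Of 6 lists of genes of pathways and complexes, 2 genes hold one of these peaks, where 83 of all 35805 genes do. They are ZNRF3, an inhibitor of Wnt receptors, among 14 Wnt targets and feedback genes, and CAMK2D, among 20 signalling kinases and their regulators. With so few peaks, 0 or 1 gene per list allows no reading. In RNA with the block, 5 genes were called higher and 0 lower of 16 tested neuronal and synaptic genes (of 40), and 4 and 0 of 11 tested Wnt genes. Of 15 cell cycle inhibitors and p53 targets, 3 were called higher and 2 lower. The counts were 5 and 1 of 16 tested kinases, 1 and 2 of 17 writers and readers of histone marks, and 1 and 1 of 14 class I deacetylases and corepressors. Over all genes tested 7.83% were called higher and 6.55% lower. The lists had median changes of 0.80, 0.33, 0.05, 0.34, 0.00 and -0.01 on the log2 scale in that order.

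The genes that the study assayed were not among the 118. It measured H3K18cr by ChIP-qPCR at CDKN1A, BBC3, CLDN7 and ADAD1, and HDAC1, HDAC2 and HDAC3 as proteins. By ChIP-qPCR, set against input, the paper reports more H3K18cr with MS275 over promoters. The changes below are shares of reads, and the paper proposes that these fall at a TSS where the mark rises more elsewhere. The TSS peaks of CDKN1A, BBC3 and CLDN7 changed by -0.59, -0.75 and -0.98 in H3K18cr and by -0.57, -0.89 and -1.16 in H3K18ac on the scale of the deposited values. Those of HDAC1, HDAC2 and HDAC3 changed by between -0.21 and -0.63, and ADAD1 had no peak within 1 kb of its TSS.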

How the data were processed

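Per the labels, 14 ChIP-seq and 8 RNA-seq libraries of HCT116 were used; the mouse colon tables were not used here. For ChIP-seq the authors trimmed reads, mapped them to GRCh38 with Bowtie2, removed duplicates and counted every library over 1 shared list of MACS peaks in SEQMONK. The deposited values are log2 of reads multiplied by 1 factor per library (1 to 1.65), with 0.9 in place of 0 reads. Reads were recovered from the steps between values, and 100% were whole within 0.02 reads. The libraries held between 2236551 and 5730094 reads in peaks, and the inputs 1550122 and 1374609.

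RNA values are read counts per gene as the authors deposited them, between 35608533 and 53415604 per library; the methods give the RNA alignment for mouse, the submitters' processing notes name Trim Galore 0.4.2, TopHat2 2.0.12 and Bowtie2 2.2.5 without their roles, and use of strand in counting is not given in the sources used here. They were tested with edgeR 4.0.16 (R 4.3.3; TMM, filterByExpr, quasi-likelihood test, Benjamini-Hochberg over all 14961 genes, called under 0.05), checked on simulated counts. DESeq2 1.42.0, other filters and scalings and leaving out each library were alternatives. CPM are TMM-scaled. Deviations of same-numbered RNA libraries from their group means correlated at 0.226, 0.151, 0.433 and 0.460, and as each was above 0.1 the numbers were taken as pairs, although both crossed combinations of numbers 2 and 4 (0.239 for DMSO 2, 0.219 for DMSO 4) exceeded the value of pair 2 itself. The pairing comes from these data and not from the labels.

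Gene positions are those of GENCODE 44; motifs were searched in GRCh38. Of 12 genes with a TSS in these peaks, 7 had a RefSeq promoter entry; the sequences of 2 further named peaks are not reported here. Named peaks were the 8 largest mean gains, the 8 largest without overlap, the 6 highest levels with DMSO and the 3 on each side of the threshold; named genes were the 5 largest rises and falls with at least 100 counts and 4 pairs alike (2 falls met this), those called with the block, those with a TSS in a peak, and the genes the study assayed. The peaks, lists and motifs were chosen with earlier results of these data known. Python 3.11.15, numpy 2.4.6, pandas 2.3.3, scipy 1.17.1 and matplotlib 3.10.9 were used.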

Additional observations from a re-analysis of the deposited data

Results flagged for a closer look

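In the RNA of RUNX1, which holds one of the peaks that gained both marks, DMSO replicate 3 was far below the other 3 DMSO libraries, at 25.8 CPM against 34.7, 35.5 and 35.6 CPM. This was 1 of 36 groups of 4 libraries examined (18 genes, 2 treatments), and about 1 in 20 such groups is marked by chance.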

How the results depend on the processing

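The number of peaks that gained both marks was 118 and moved with the scale and the limits of the rule. It was 1910 with TMM scaling and 5751 with the reads in peaks set equal (90 and 76 of the 118 among them, the remainder lost to the level floor and not to the gain), 2719 with the change of the single input pair subtracted (61 among them), 456 and 5 for gains of at least 0.2 and 0.5 (the 5 in or by CAMK2D, TLK2, IGF2BP3, GRHL3 and NPFFR1), and 424 and 12 for levels of at least 4 and 6. The replicate block, as all 3 pairs above 0 in both marks, left 54. Leaving out libraries gave between 79 and 219, the lowest without H3K18ac MS275 replicate 1; the count moved by over 1.5 times without replicate 2 (219) and without H3K18ac MS275 replicate 3 (179). The share of peaks at a TSS (10.0% to 14.2%) and the input change (0.00 to 0.08) kept within their intervals or spread.

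In RNA, 1 gene was called without the block, PAG1 (2.72 ± 0.25, edgeR adjusted p = 0.0052, named after its value was seen), which holds none of the peaks. No filter gave 13, DESeq2 161, and leaving out libraries 0 to 8; it was lost without DMSO replicate 1 or 2, MS275 replicate 2, or replicate 1, 2 or 4 of both treatments, and replicate 3 left out gave 8. With the replicate block the count was 2151, or 2771 with no filter, 2198 with relative log expression factors, 2610 by DESeq2 and 968 to 2584 without each replicate in turn (968, 994 and 1037 without replicates 1, 2 and 4). Genes with one of the peaks numbered 0 called without the block and 16 with it, 18 with no filter, 15 with relative log expression factors, and 8 to 15 without each replicate; the counts were 8, 9 and 10 without replicates 1, 2 and 4. DESeq2 called 2 and, with the block, 19. With members by TMM scaling 1 was called, and 195 of 700 with the block (170 higher); with peaks at a TSS alone, 4 of 9 with the block. Refits were made for 18 genes, those called with the block with MEGF11 and EWSR1, and none reversed (0 of 414). In a window of 600 bases AP-1 matches were in 43.2% of the peaks and 25.9% of the other peaks, and away from a TSS in 48.1% (interval 38.8 to 57.5) and 36.7%, with 39.5% in the nearest group. At about 40 reads per peak, a gain of 0.3 in a single peak is under 2 of its standard errors.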
